A study of Homo sapiens with 24 samples.

Results

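Hedgehog pathway transcripts were followed through m6A-seq of human pluripotent stem cells and their pancreatic derivatives. The group held 9 genes, chosen by name: the ligands SHH and IHH, the receptor PTCH1, the ligand-binding protein HHIP, the transducer SMO, the inhibitor SUFU and the transcription factors GLI1, GLI2 and GLI3. A peak was taken when its Ensembl gene identifier was that of a member, which gave 152 of the 228472 deposited peaks, on 9 of 25113 genes with a peak, and each of the 152 named its member alone. m6A-seq pulls down RNA fragments that carry N6-methyladenosine with an antibody (IP) and sequences them beside the unprecipitated fragments (input), so that methylated stretches appear as peaks of IP over input.

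All cells came from MEL1, a human embryonic stem cell line carrying a GFP reporter in INS. The 24 libraries formed 12 groups of 2, with IP and input kept apart in each of 6 populations, and 1 peak list per population was deposited. Batch 1 held the undifferentiated line (hPSC), its definitive endoderm (DE), progenitors of the pancreas (PP) and organoids resembling human islets (hILO), all wild type, with mRNA as starting material and a SYSY antibody. Batch 2 held wild-type pancreatic progenitors (WT PP) and pancreatic progenitors from A5-KO cells, which carry CRISPR-Cpf1 indels in the first exon of the m6A demethylase gene ALKBH5, with total RNA, a Millipore antibody, another library kit and input depleted of rRNA. The study made more than 1 knockout line, and the labels name the line of these libraries only as A5-KO. The medium of PP, hILO, WT PP and A5-KO PP contained 0.1 µM GDC-0449 (vismodegib), an antagonist of SMO, on days 7 to 8, so every population from the progenitor stage on had passed through Hedgehog inhibition and no progenitor population without it was analysed here. Batch 1 and batch 2 differ in RNA, antibody and kit, so a difference of PP from WT PP cannot be told apart from these.

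In Hedgehog signalling the secreted ligands SHH and IHH bind PTCH1, which otherwise restrains SMO. Active SMO releases the GLI proteins from SUFU, and GLI proteins then activate targets that include GLI1, PTCH1 and HHIP themselves, so the pathway feeds back on its own receptor. In pancreas development Hedgehog ligands are kept low in the pancreatic endoderm, which is why differentiation protocols block SMO, while IHH is produced by other parts of the gut endoderm.

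For each member, 1 stretch of the reference genome is shown from the site found in the most lists, with ties broken by the IP reads as listed. Each is 29 bases of GRCh38 on the transcript strand, 5′ to 3′. The capitals mark the GGAC, or failing that the DRACH, nearest the centre of the bases shared by the most lists, where DRACH is the consensus of the methyltransferase: A, G or T, then A or G, then A and C, then A, C or T. The site of SHH was found in 3 lists, that of IHH in 5, that of HHIP in 2, that of GLI1 in 4, that of GLI2 in 3 and those of PTCH1, SMO, SUFU and GLI3 in all 6. No base of the GLI2 site was covered in more than 2 lists, and the stretch shown lies in peaks of hPSC and WT PP. Region names are those of the whole site. The stretch shown for SHH lies past the stop codon, in the 3′ UTR.
SHH (ENSG00000164690), coding sequence and 3′ UTR site, chr7:155802722-155802750, minus strand: ctaaggaaacaaGGACCccgggaagtttt
IHH (ENSG00000163501), stop codon and 3′ UTR site, chr2:219055110-219055138, minus strand: tggccctggaagGGACCtgagctggggga
PTCH1 (ENSG00000185920), coding sequence site, chr9:95467230-95467258, minus strand: cacccagaaagcAGACTacccgaatatcc
HHIP (ENSG00000164161), 5′ UTR site, chr4:144646294-144646322, plus strand: ctcccgttacacGGACAagtgaacatctg
SMO (ENSG00000128602), stop codon and 3′ UTR site, chr7:129212459-129212487, plus strand: gagcaggacctgGGACAggaaagagagga
SUFU (ENSG00000107882), 3′ UTR site, chr10:102630394-102630422, plus strand: gtgggcaaatgcGGACCctccctgcctgc
GLI1 (ENSG00000111087), coding sequence site, chr12:57471210-57471238, plus strand: tctgactccacaGGACTggcaccctgcct
GLI2 (ENSG00000074047), coding sequence site, chr2:120990222-120990250, plus strand: aggtggggccccGGACCacagcatgctct
GLI3 (ENSG00000106571), coding sequence site, chr7:41964518-41964546, minus strand: catagacgatggGGACCactccagcctga

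A GGAC lay in 8 of the 9 shared stretches and PTCH1 held AGACT in its place. The marking preferred GGAC, and no share of like stretches with a GGAC was computed over all genes. The number of DRACH in the shared bases was 12 in 375 nt for SMO, 11 in 475 nt for IHH and 9 in 400 nt for SUFU, 4 in 100 nt for SHH and 2 in 100 nt for PTCH1 and GLI3. A DRACH is common, since 38.7% of 3731048 windows of 29 nt tiled over the exons of all protein-coding genes held 1, so these matches describe the sequence and do not locate the methylated base.

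The reads listed beside a peak did not follow the length of its coordinates over large stretches of each list, which decided how the values below were read. A longer peak usually collects more input reads. Over spans of up to 1000 nt, Spearman's rank correlation between length and input reads was between 0.427 and 0.456 in blocks 4 to 7 of 12 consecutive blocks of the hPSC list but was -0.00147 in its last block. In WT PP it was 0.286 in block 3 and -0.0345 in block 12. The listed values were therefore re-matched to coordinates by a model that follows a slowly growing shift between both columns. The model used length, IP reads and p, so the relation of length with input reads is not an independent check of it. The rank correlation was then between 0.367 and 0.469 in every hPSC block and between 0.218 and 0.376 in every WT PP block. Agreement between lists did not enter the model. Input reads per base at the same site in 2 lists correlated across peaks at 0.464 as listed and 0.739 as re-matched between hPSC and DE, and at 0.383 and 0.778 for the WT PP and A5-KO PP lists. The listed and the re-matched pairing were the same for 38.9% of peaks for hPSC, 36.8% for DE, 16.4% for PP, 11% for hILO, 9.51% for WT PP and 8.35% for A5-KO PP. The pluripotency gene POU5F1 had 11 input reads as listed in hPSC and 1490 as re-matched.

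Positions of peaks were used as deposited, and whether the fault touched which of them were listed was not tested. Reads of a member are given as re-matched, where the probability of the match was at least 0.9, which held for 133 of the 152 member peaks, and the re-matched input differed from the listed input in 94 of these. By list, 31 of 31 member peaks had re-matched reads in hPSC, 18 of 18 for DE, 5 of 21 for PP, 13 of 13 for hILO, 32 of 34 for WT PP and 34 of 35 for A5-KO PP, so PP is described mostly by position. The peak numbers of each list also skip, for 0.136% of numbers for hPSC, 1.42% for DE, 4.23% for PP, 3.86% for hILO, 9.51% for WT PP and 4.72% for A5-KO PP. A member without a peak in a list may have had a skipped entry. Within the runs of member peaks 2 positions were skipped in WT PP, at GLI3 and SUFU, and 1 in A5-KO PP, at GLI3. Each list pools its libraries, so no value below has a spread between replicates, errors and intervals cover counting error only, and no test across conditions could be made.

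The lists held between 29083 (PP) and 55219 (A5-KO PP) peaks, and the reads inside peaks ran from 6987612 (PP) to 28463998 (hILO) for input and from 30723097 (DE) to 79822815 (hPSC) for IP. No input read was counted in 11.5% of WT PP peaks and 24.6% of A5-KO PP peaks, against at most 0.183% in batch 1. ALKBH5, the targeted gene, had 3 peaks in each batch 1 list, 4 for WT PP and 5 for A5-KO PP. Its re-matched input level was 384 for WT PP and 38.5 for A5-KO PP, in reads per kb of exonic peak sequence and per 1000000 input reads in all peaks of the list, the scale used for every input level below. An indel in the first exon need not lower the RNA, and the cause of this difference was not tested. The level was 184 for hPSC, 188 for DE, 810 for PP and 146 for hILO. POU5F1 and NANOG had peaks in hPSC and DE only, INS, GCG and SST in hILO only and PDX1 in PP, hILO, WT PP and A5-KO PP. Of the endoderm markers SOX17 had peaks in DE, WT PP and A5-KO PP, FOXA2 in every list but hPSC and CXCR4 in all 6 lists, and the progenitor marker SOX9 had peaks in every list but DE. Of the hepatic markers, ALB had a peak in hILO only and AFP in hILO, WT PP and A5-KO PP, and their re-matched levels in hILO were 156 and 863. Of the mesenchymal markers, which mark cells known to receive Hedgehog signals in the gut, COL1A1 and PDGFRA had peaks in all 6 lists, COL3A1 in PP, hILO and A5-KO PP, and FOXF1 in none. Their part in the values of the Hedgehog genes was not tested.

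Peaks were found on 6 of the 9 genes for hPSC, on 7 for DE, on 6 for PP, on 6 for hILO, and on all 9 for WT PP and for A5-KO PP. Of all 20046 protein-coding genes, 60.2% had a peak for hPSC, 57% for DE, 52.2% for PP, 57.7% for hILO, 62.8% for WT PP and 69.7% for A5-KO PP. The number of member peaks was 31 for hPSC, 18 for DE, 21 for PP, 13 for hILO, 34 for WT PP and 35 for A5-KO PP. PTCH1, SMO, SUFU and GLI3 had a peak in every list, IHH in every list but hPSC, and GLI2 in every list but hILO. HHIP had peaks only in the batch 2 lists. Within batch 1, IHH was first listed at DE and SHH at hILO, while GLI1 was last listed at DE, GLI2 at PP and GLI3 at hILO.

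**Figure D1:**
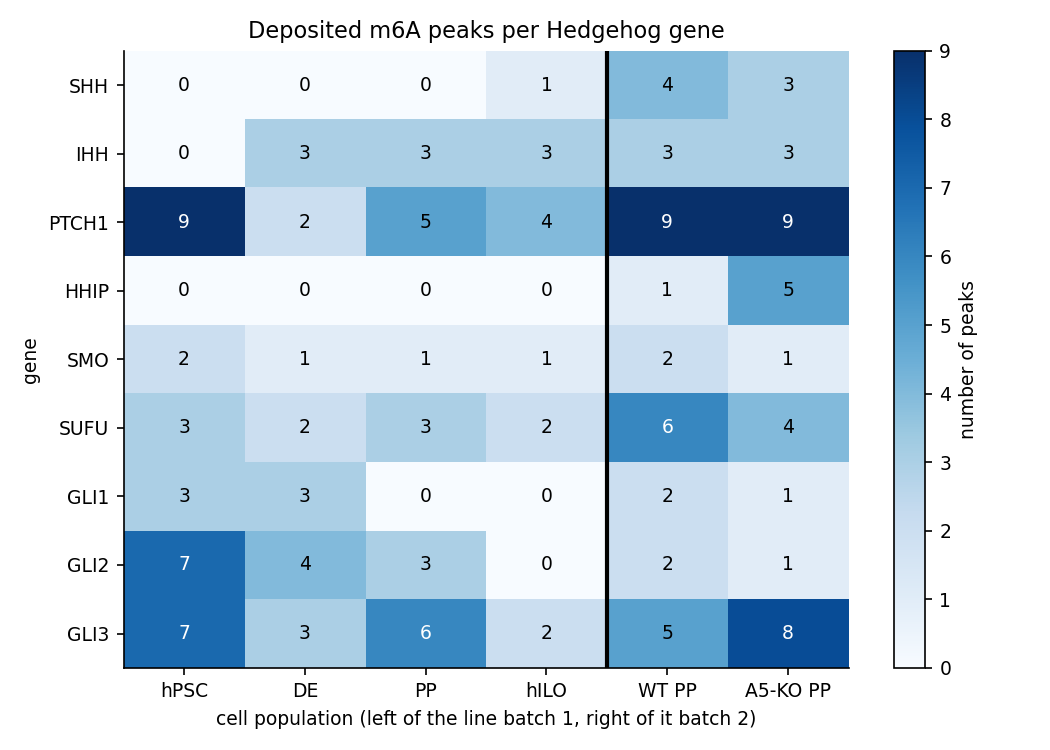
Number of deposited m6A peaks on each of the 9 Hedgehog genes (rows) in each of the 6 lists (columns), with the batches separated by the black line. PTCH1 had between 2 and 9 peaks in every list, IHH had 3 in every list but hPSC, and HHIP had peaks only in WT PP and A5-KO PP.

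SHH, the ligand best known from limb and neural tube patterning, had no peak in hPSC, DE and PP, 1 for hILO, 4 for WT PP and 3 for A5-KO PP. The hILO peak lay 171 nt past the stop codon and held 24 input and 102 IP reads. In WT PP, 215 input and 2097 IP reads were found in a peak of 900 nt around the stop codon, 67 and 176 in a short peak past it and 299 and 767 in a peak early in the coding sequence. The A5-KO PP list had peaks at both places, with 19 input and 428 IP reads in a peak of 1000 nt around the stop codon and with 97 and 376 reads and 300 and 579 reads in a pair of peaks early in the coding sequence. The input level over all SHH peaks was 8.43 for hILO (95% Poisson interval 5.4 to 12.5), 19.5 for WT PP (18 to 21.2) and 27.3 for A5-KO PP (24.7 to 30). At the stop codon alone the level was 12.6 for WT PP and 1.49 for A5-KO PP, the opposite order, and the higher A5-KO PP level over all peaks was carried by a coding peak of 75 nt at 315. Progenitors thus carried SHH peaks in batch 2 and none in batch 1, which cannot be told apart from the difference in RNA, antibody and kit. In these bulk samples fewer cells that make a transcript and less of it per cell cannot be told apart.

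IHH, the ligand made by gut epithelium and by cartilage, had 3 peaks in each list from DE on and none in hPSC. Its input level was 25.7 for DE (22.8 to 28.8), 96.5 for PP (88.7 to 105) and 213 for hILO (208 to 218), and 87.1 for WT PP (83.7 to 90.6) and 195 for A5-KO PP (188 to 202). The intervals of DE, PP and hILO did not overlap, nor did those of WT PP and A5-KO PP. The places of hILO above PP and of A5-KO PP above WT PP rest on the re-matching. As listed, the IHH peaks held 2091, 186 and 205 input reads in hILO. In WT PP they held 1435, 251 and 1080 as listed, and in A5-KO PP 109, 417 and 197. At the stop codon peak alone, by re-matched reads, DE at 17.9 (14.6 to 21.6) and PP at 19.9 (15.6 to 25) overlapped, with hILO at 167, WT PP at 82.9 and A5-KO PP at 167. The PP level over all peaks included a coding peak of 50 nt at 681. The stop codon peak, which also covers the first part of the 3′ UTR, was present in all 5 of these lists. It held 107 input and 577 IP reads in DE, 73 and 355 for PP, 2497 and 11659 for hILO, 1972 and 4138 for WT PP and 2234 and 13579 for A5-KO PP. A peak in the coding sequence, drawn across an intron, held 111 and 319 reads in DE, 262 and 2208 in PP and 2991 and 6612 in hILO, where it reached further 5′. The 5′ UTR peaks of IHH were listed in WT PP alone.

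The IP/input ratio of IHH differed between stages in opposite directions at these sites. Ratios are given as log2 of IP over input reads with 0.5 added to each, minus the median over all peaks of the list, with the counting error as 1 SE. At the stop codon the ratio was 1.07 ± 0.15 for DE, 0.07 ± 0.18 for PP and 0.81 ± 0.03 for hILO. In the coding sequence it was 0.16 ± 0.16, 0.87 ± 0.09 and -0.27 ± 0.03. The coding peak was thus above the stop codon peak in PP and below it in DE and hILO, by more than the counting errors, on the same scale within each list.

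PTCH1, the receptor and itself a target, carried the most peaks, 38 over all lists: 9 for hPSC, 2 for DE, 5 for PP, 4 for hILO, 9 for WT PP and 9 for A5-KO PP. Its 17 sites ran from the 5′ UTR to the 3′ UTR. A site in the coding sequence, at -1935 nt from the stop codon, was found in all 6 lists, and sites at -367 and 145 nt in 5 each. The re-matched input reads of its peaks lay between 10 and 125 for hPSC, were 10 and 35 for DE, and lay between 80 and 286 for hILO, between 35 and 515 for WT PP and between 5 and 583 for A5-KO PP. The input level was 34.3 for hPSC (31.2 to 37.6), 11 for DE (8.01 to 14.7), 37.2 for hILO (34.3 to 40.4), 31.6 for WT PP (30.1 to 33.1) and 59.2 for A5-KO PP (56.1 to 62.4). DE was below hPSC and hILO, hPSC and hILO overlapped in their intervals, and A5-KO PP was above WT PP. The A5-KO PP level included a span of 8562 nt at 262 and a peak of 75 nt at 216, and at the site -4054 nt from the stop codon the level was 108 for WT PP and 1.27 for A5-KO PP, the opposite order. In PP 1 of the 5 peaks, which lies off the isoform with the longest coding sequence, had a match of sufficient probability, with 8 input and 75 IP reads.

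HHIP binds the ligands at the cell surface and is a target of the pathway. It had 1 peak in the WT PP list and 5 in that of A5-KO PP, and all 6 had no input read as re-matched. As listed, the WT PP peak had 110 input reads and the A5-KO PP peaks 0, 811, 38, 385 and 0. The levels below thus rest on the re-matching. The IP reads were 43 in WT PP, and 45, 33, 134, 36 and 38 in A5-KO PP from the 5′ UTR to the end of the coding sequence. The 5′ UTR site was common to both lists. No input read over these peaks allows a level of up to 2.1 for WT PP and 0.255 for A5-KO PP, taken at 3 reads, with Poisson intervals that reach 2.58 and 0.314, so no enrichment can be given. Of the 5 A5-KO PP peaks, 4 were spans of over 2000 nt across introns, the longest 46417 nt. In A5-KO PP 10 of 35 member peaks, or 28.6%, had such spans, against 33.3% of all its peaks, and in WT PP 3 of 34, or 8.82%, against 15.5%.

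SMO is the transducer that GDC-0449 blocks. A site over the stop codon and the start of the 3′ UTR was present in all 6 lists, between 375 nt long in PP and 650 nt long in A5-KO PP. It held 771 input and 9530 IP reads in hPSC, 953 and 3899 for DE, 571 and 3918 for PP, 816 and 2894 for hILO and 473 and 6568 for A5-KO PP. The match of the WT PP peak had a probability of 0.888 and its reads are not given. The input level of the site was 228 for hPSC, 168 for DE, 218 for PP, 63.7 for hILO and 57.2 for A5-KO PP. The log2 ratio over the list median was 0.32 ± 0.05 for hPSC, 0.67 ± 0.05 for DE, 0.57 ± 0.06 for PP and 0.41 ± 0.06 for hILO, and 1.34 ± 0.07 for A5-KO PP. In batch 1 these values thus stayed within 0.35 of each other while the input level in hILO was the lowest of the 4.

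SUFU, which holds GLI proteins inactive in the cytoplasm, had peaks in the 3′ UTR in every list, 19 of 20 in all. The site nearest the stop codon was found in all 6 lists. A second region, centred 1901 nt past the stop codon, was also touched by a peak in all 6, with no base covered in more than 5. The first site held 48 input and 801 IP reads in hPSC, 93 and 501 for DE, 113 and 612 for hILO, 293 and 5061 for WT PP and 121 and 3181 for A5-KO PP. The input level over all SUFU peaks was 12.2 for hPSC (10.1 to 14.5), 21 for DE (18.5 to 23.8), 13.6 for hILO (11.9 to 15.4), 30.2 for WT PP (28.4 to 32.2) and 19.9 for A5-KO PP (18.1 to 21.9). hPSC and hILO overlapped in their intervals, DE was above both, and WT PP was above A5-KO PP. These orders did not hold at each peak. At the first site DE at 14.1 (11.3 to 17.2) overlapped hPSC at 11.5 (8.46 to 15.2). In the second region the longer peak was at 19.3 (16.8 to 22.1) for WT PP and 44 (38.1 to 50.7) for A5-KO PP and the shorter one at 72.1 (62.6 to 82.7) and 15.4 (11.4 to 20.4), and the WT PP level over all peaks included a coding peak of 75 nt at 130.

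GLI1, the activator and the usual readout of the pathway, had 3 peaks for hPSC, 3 for DE, none in PP and hILO, 2 for WT PP and 1 for A5-KO PP. In hPSC its peaks held 24, 145 and 61 input reads and in DE 36, 94 and 46. The WT PP peaks held 0 and 15 input reads with 69 and 109 IP reads, and the A5-KO PP peak held 0 input and 93 IP reads. The input level was 25.6 for hPSC (22.4 to 29.2), 14.3 for DE (12.3 to 16.6) and 1.97 for WT PP (1.1 to 3.25), and no input read in A5-KO PP allows up to 1.05 at 3 reads. The Poisson interval of A5-KO PP, from 0 to 1.29, overlapped that of WT PP. The coding sequence site at -952 nt from the stop codon was shared by all 4 lists with a peak.

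GLI2, the main activator of the first response, had 7 peaks for hPSC, 4 for DE, 3 for PP, none in hILO, 2 for WT PP and 1 for A5-KO PP. Its input level was 57.4 for hPSC (54.4 to 60.6) and 6.76 for DE (5 to 8.94), and 6.77 for WT PP (4.53 to 9.72). The single A5-KO PP peak was a span of 56172 nt with 175 exonic bases and 296 input reads, so its level of 133 is not comparable with the others. The isoform with the longest coding sequence ends at its stop codon, and of the 17 GLI2 peaks, 7 could not be placed on it. Those among the 7 from hPSC, DE and PP lay past this stop codon, in exons of the gene. With this isoform they are not counted as 3′ UTR peaks.

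GLI3, which acts mostly as a repressor when no ligand is present, had 7 peaks for hPSC, 3 for DE, 6 for PP, 2 for hILO, 5 for WT PP and 8 for A5-KO PP, and 28 of these 31 peaks lay in the coding sequence. The site before the stop codon was present in all 6 lists. The input level was 52.4 for hPSC (48.4 to 56.7), 7.37 for DE (5.77 to 9.28) and 7.31 for hILO (5.78 to 9.12), and 1.38 for WT PP (0.875 to 2.07) and 7.37 for A5-KO PP (6.52 to 8.29). hPSC was above DE and hILO, which overlapped each other. The WT PP peaks held 16, 0, 0, 1 and 6 input reads, and in A5-KO PP 3 of the 8 peaks were spans of over 2000 nt across introns. These spans held 73, 140 and 22 of the 276 A5-KO PP input reads, so its level is not comparable with that of WT PP. At the peak nearest the stop codon the level was 3.15 (1.16 to 6.86) for WT PP and 6.29 (4.11 to 9.22) for A5-KO PP, with overlapping intervals.

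By re-matched reads the transcription factors, PTCH1 and SMO thus had lower input levels in DE than in hPSC. This rests on the re-matching, since the level over all member peaks was 49.7 for hPSC and 29.5 for DE as re-matched but 56.3 and 152 as listed. The order of the members in hPSC was SMO, GLI2, GLI3, PTCH1, GLI1 and SUFU, with intervals that overlapped only between GLI2 and GLI3. In WT PP the order was IHH, SMO, PTCH1, SUFU, SHH, GLI2, GLI1 and GLI3, with HHIP at no input read. In that order the intervals of PTCH1 and SUFU overlapped, as did those of GLI1, GLI3 and HHIP, whose interval reached 2.58, and SMO is there represented by its shorter 3′ peak alone.

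**Figure D2:**
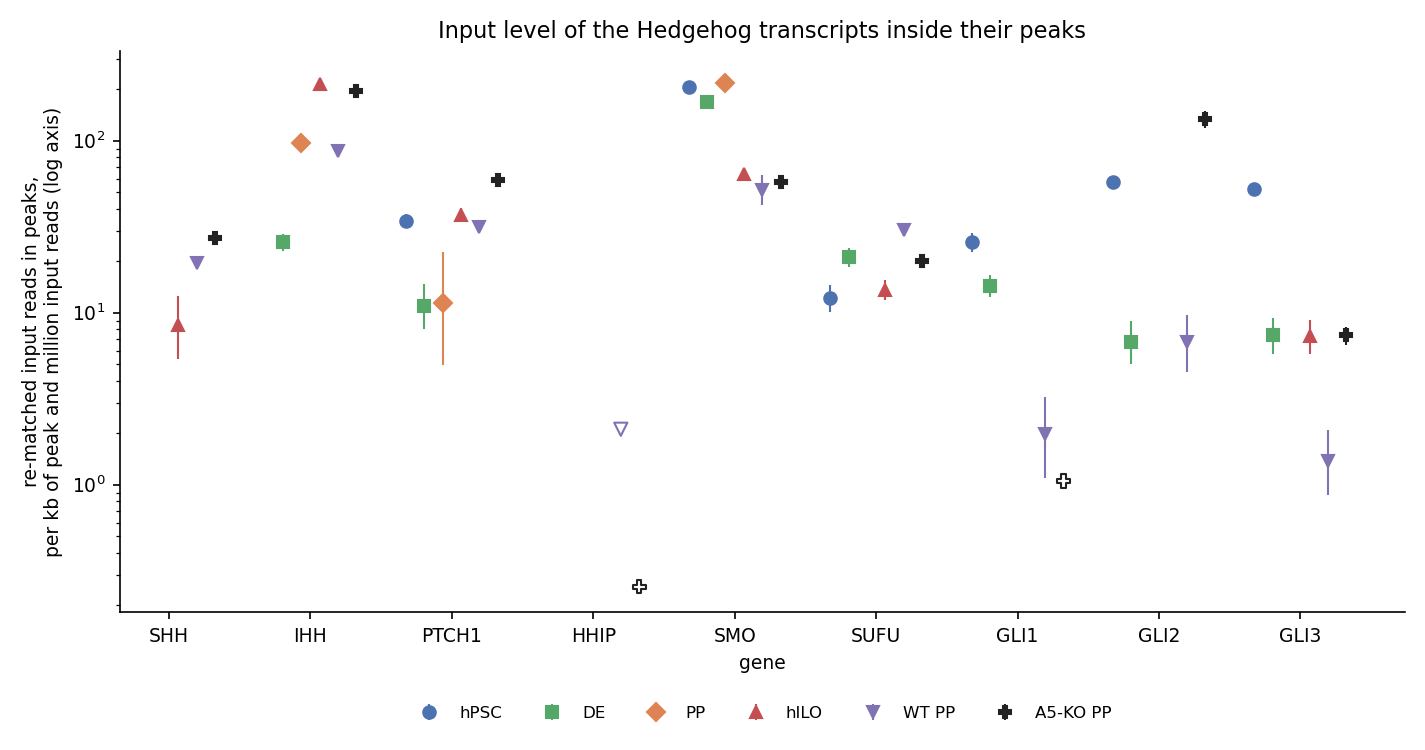
Re-matched input reads in the peaks of each gene, per kb of exonic peak sequence and per 1000000 input reads in all peaks of the list (log axis), 1 marker per list, with 95% Poisson intervals for counting error. Open markers stand at the level of 3 reads for genes whose peaks held no input read, and lists without a peak or without a match of sufficient probability have no marker. IHH lay at 25.7 for DE and 213 for hILO, and GLI2 and GLI3 lay above 50 for hPSC and below 10 for DE.

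The exonic pieces of the peaks of all lists, leaving out spans over 2000 nt as seeds, merged into 58 sites, so that a peak drawn across an intron could count as more than 1 site. Of these, 5 were found in all 6 lists, with no share over all genes computed beside it. The 5 sites were 1 each on PTCH1, SMO and GLI3 and 2 on SUFU.

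**Figure D3:**
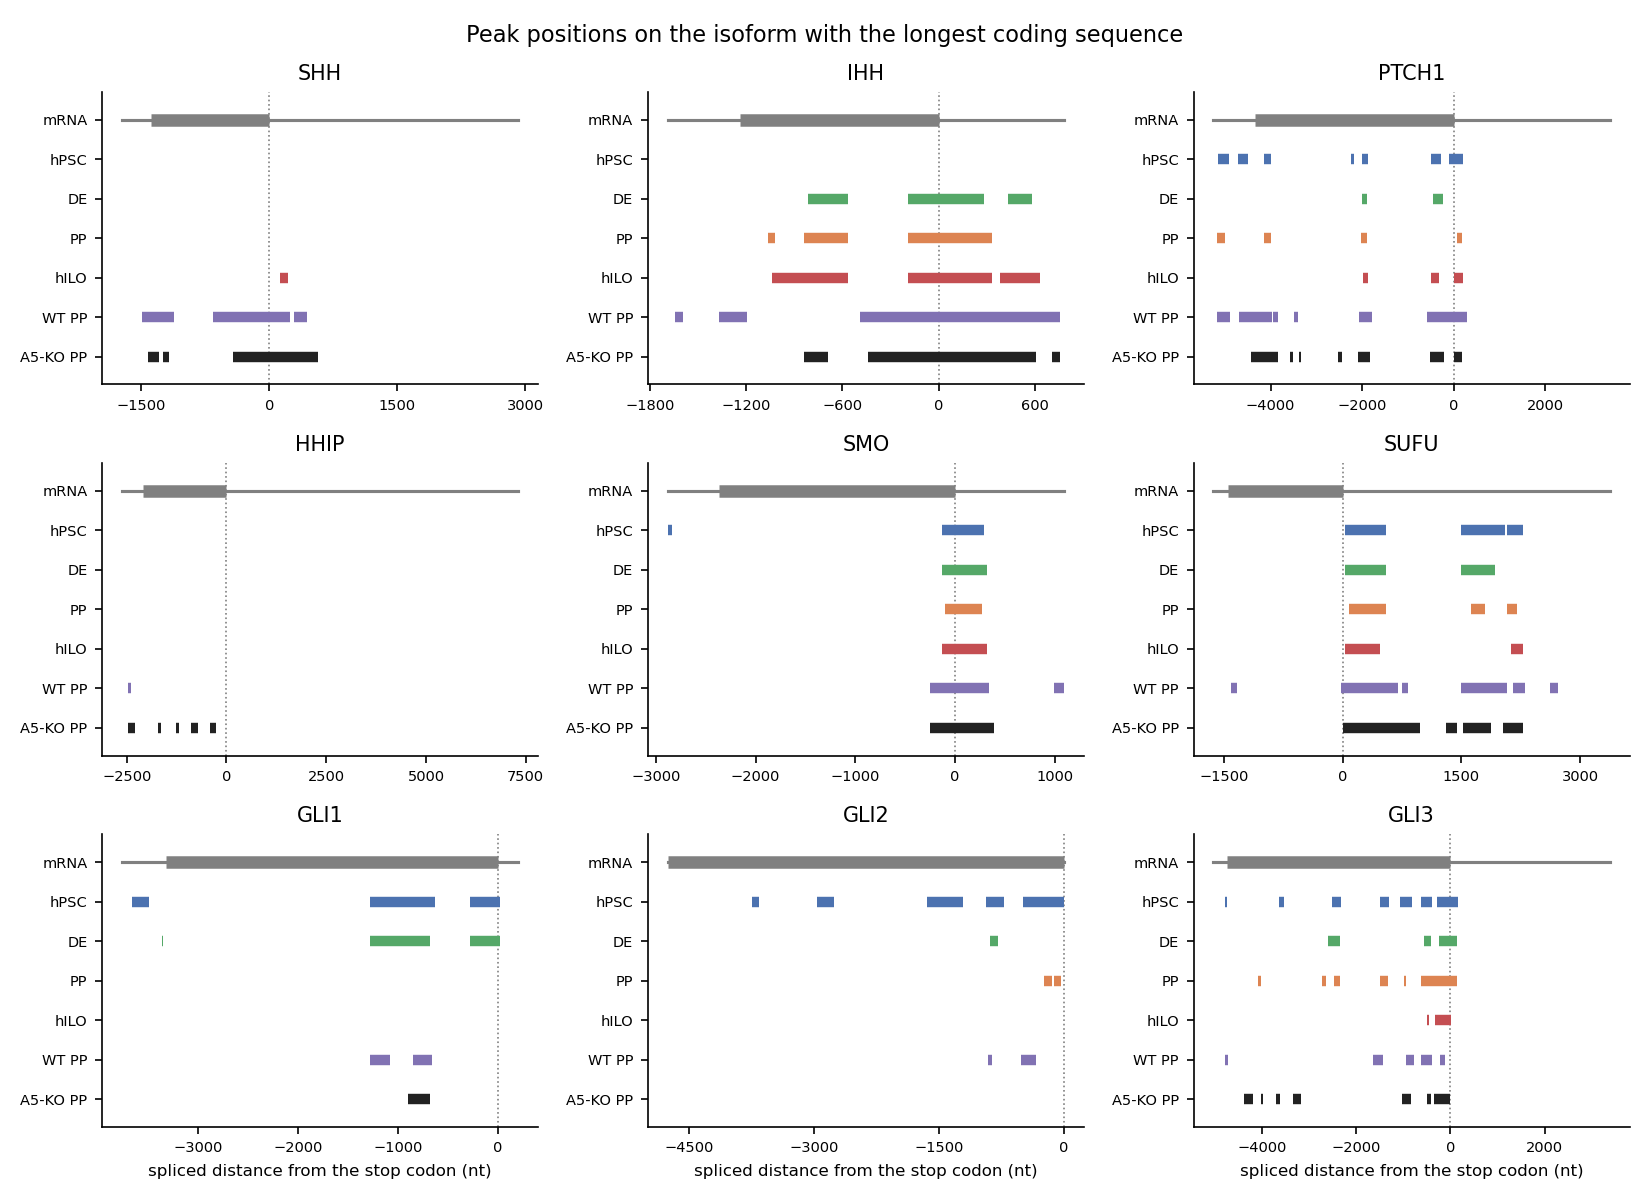
Peaks on the spliced isoform with the longest coding sequence of each gene, as distance from the stop codon in nt (dotted line at 0), 1 row per list. The top row of each panel is the transcript with the coding sequence drawn thick, and peaks off this isoform are not drawn. SMO and SUFU had peaks at or past the stop codon in all 6 lists, beside 1 SMO peak in the 5′ UTR for hPSC and 1 SUFU peak in the coding sequence for WT PP, and GLI3 peaks lay mostly before it.

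The members differed in where along the transcript their peaks lay. SMO had 7 of 8 peaks in the 3′ UTR, SUFU 19 of 20 and IHH 8 of 15. In the coding sequence PTCH1 had 24 of 38, GLI1 7 of 9, GLI2 10 of 17, GLI3 28 of 31, HHIP 4 of 6 and SHH 4 of 8. The share in the coding sequence over all genes was between 53.2% (WT PP) and 60.2% (A5-KO PP) of the peaks on the isoform. Over all members, the share in the 3′ UTR was 17.9% for hPSC, 33.3% for DE, 31.6% for PP, 58.3% for hILO, 31.2% for WT PP and 27.3% for A5-KO PP. Over all genes it was 36.2%, 40.4%, 34.1%, 38.3%, 39.7% and 33%. Peaks off the isoform are left out of these shares. Among them are the GLI2 peaks past its stop codon, since the isoform used for GLI2 has no 3′ UTR. The high share in hILO came with few peaks, 7 of 12, of which SUFU and IHH gave 4. With the longest transcript in place of the longest coding sequence, 11 of the hPSC and 10 of the DE member peaks were in the 3′ UTR instead of 5 and 5.

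A DRACH was found in 143 of the 152 member peaks, and over all peaks on protein-coding genes in between 89.5% (PP) and 93.5% (hILO) of a list. Its density on the transcript strand was 19.5 per kb inside member peaks and 16.7 in the other exons of the same genes in hPSC, 23.6 and 16.6 for DE, 24.3 and 16.6 for PP, 23.2 and 17.2 for hILO, 18.7 and 17.2 for WT PP and 19.8 and 17 for A5-KO PP. The ratio of the densities was 1.17, 1.42, 1.46, 1.34, 1.09 and 1.16 in that order, beside 1.26, 1.3, 1.27, 1.27, 1.22 and 1.23 over all protein-coding genes with a peak. GGAC, 4 letters that also form the core of many DRACH, was between 1.72 and 2.12 times as dense inside member peaks as outside them.

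The next comparisons asked which peaks a stage shared with the stage before it. A peak counted as shared when over 50% of its exonic bases were covered in the other list. Of 31 member peaks in hPSC, 11 were found in DE (35.5%, exact 95% interval 19.2% to 54.6%), against 52.4% of all hPSC peaks. The 20 that were not found included 6 of the 7 GLI2 peaks and 7 of the 9 PTCH1 peaks. In the other direction 14 of 18 DE peaks were found in hPSC (77.8%, 52.4% to 93.6%), against 64.7% of all, and the 4 others were 1 of GLI1 and the 3 of IHH. Of the DE peaks 8 of 18 were found in PP (44.4%, 21.5% to 69.2%), against 46.6% of all, and of the PP peaks 9 of 21 in DE (42.9%, 21.8% to 66%), against 56.9%. Of the PP peaks 7 of 21 were found in hILO (33.3%, 14.6% to 57%), against 60.4% of all, and 8 of 13 hILO peaks in PP (61.5%, 31.6% to 86.1%), against 45.5%. All 6 GLI3 and all 3 GLI2 peaks of PP were among those not found in hILO by this rule, but the GLI3 peak of 750 nt near the stop codon held both hILO peaks of GLI3, and with any overlap 9 PP peaks were found. Peaks of 1 transcript are not independent draws, so these intervals are too narrow and no difference from the share of all peaks is read from them.

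Enrichment at shared peaks was compared next, with a difference of over 1 on the log2 scale as the study's size for a differential peak. By the log2 enrichment as listed, 1 of 11 shared member peaks passed it between hPSC and DE, against 11.6% of all shared peaks, 2 of 8 between DE and PP, against 15.8%, and 3 of 7 between PP and hILO, against 17.5%. Those values carry the fault in the pairing, and the peak past 1 between hPSC and DE was a GLI1 peak, lower in DE, as listed and another one as re-matched. From PP to hILO 2 were higher and 1, the coding peak of IHH, was lower as listed, and only 3 of the 7 pairs had re-matched reads. By re-matched reads, 1 of 11 passed between hPSC and DE, against 3.87% of all, 1 of 3 between DE and PP, against 6.05%, and 1 of 3 between PP and hILO, against 7.01%. From hPSC to DE that peak was in the coding sequence of GLI3, at -2418 nt from the stop codon in hPSC, with 119 input and 942 IP reads in hPSC and 12 and 69 in DE, a difference of 1.45 ± 0.46. The SMO site differed by 0.35 ± 0.08 and the remaining 9 by between -0.47 and 0.74, with a median over the 11 of 0.19 beside -0.07 over all. From DE to PP the stop codon peak of IHH differed by -1.0 ± 0.24 and its coding peak by 0.71 ± 0.18, and SMO by -0.10 ± 0.08. From PP to hILO the same sites differed by 0.74 ± 0.19, -1.13 ± 0.10 and -0.16 ± 0.09, beside a median of 0.24 over all shared peaks.

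The comparison of WT PP with A5-KO PP asked what differs in cells edited in the demethylase gene ALKBH5. Of 34 member peaks in WT PP, 17 were found in A5-KO PP (50%, 32.4% to 67.6%), against 49.9% of all WT PP peaks, and of 35 in A5-KO PP, 18 were found in WT PP (51.4%, 34% to 68.6%), against 46.7%. The 17 of A5-KO PP that were not found included the 5 of HHIP, of which the 5′ UTR peak holds the WT PP peak but is not covered by it to over 50%, 6 of the 8 of GLI3 and 3 of the 9 of PTCH1. By the listed log2 enrichment 11 of 17 shared member peaks differed by over 1, 8 up and 3 down in A5-KO PP, against 66.9% of all shared peaks. By re-matched reads 8 of 16 did, 6 up and 2 down, against 42.9% of all, and the median was 0.44 over the members and -0.51 over all. A GLI1 peak up and a GLI3 peak down among these had no input read in 1 of the lists, so their size rests on the 0.5 added. With at least 10 re-matched input reads in both lists 5 of 11 did, with 4 up and 1 down, and the median was 0.70 over the members and -0.53 over all, where 646 peaks were up and 2405 down. A SUFU and an SHH peak among those up in both counts reuse the A5-KO PP reads of another pair. The pairs behind these counts and medians are therefore not all separate. The split over all peaks changed with the values used, from 8370 up and 6089 down as listed to 1542 up and 3263 down as re-matched.

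The stop codon peak of IHH was the best covered of these, with 1972 input and 4138 IP reads in WT PP and 2234 and 13579 in A5-KO PP, a difference of 1.12 ± 0.05. The SUFU 3′ UTR gave differences of 0.19 ± 0.16 at the site nearest the stop codon, -1.22 ± 0.15 in the second region and 1.11 ± 0.26 at its 3′ end. PTCH1 gave 0.70 ± 0.19 at the site of all 6 lists, -0.20 ± 0.25 in the 3′ UTR and -0.56 ± 0.14 in a span of 8562 nt. The largest PTCH1 value, 5.40 ± 0.62, rested on 5 input reads in an A5-KO PP span of 3285 nt. SHH gave 0.17 ± 0.19 early in the coding sequence and 0.76 ± 0.35 around the stop codon. Small WT PP peaks of SUFU and SHH that lay inside a longer A5-KO PP peak gave 3.23 ± 0.24 and 2.65 ± 0.39, and these share the A5-KO PP reads with the values just given for the same gene. Peaks on the SUFU transcript thus differed in both directions. At PTCH1 the values of -0.56 and -0.20 lay near or above the median of -0.51 over all shared peaks, so their sign rests on the centring of each list on its median.

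Progenitors of both batches were set side by side. Of 21 member peaks in PP, 9 were found in WT PP (42.9%, 21.8% to 66%), against 57.8% of all, and 8 of 34 WT PP peaks were found in PP (23.5%, 10.7% to 41.2%), against 22.4%. By the listed log2 enrichment 6 of 9 shared member peaks differed by over 1, against 76.5% of all, and all 6 were higher in WT PP. By the ratio of the listed counts 5 did, 2 higher and 3 lower, so the direction turned with the values used. Only the IHH stop codon peak had re-matched reads in both, with a difference of -1.04 ± 0.19, against 39.8% of all past 1. Here too batch and population cannot be told apart.

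Of 42 other genes of the pathway, 31 had a peak for hPSC, 31 for DE, 34 for PP, 31 for hILO, 36 for WT PP and 36 for A5-KO PP. A peak in all 6 lists was found for 25, against 37.7% of all protein-coding genes. These included 13 of 15 cytoplasmic regulators and 6 of 7 genes of the cilium or of ubiquitin ligases, as well as the co-receptor gene CDON and GPC3, a glypican that binds Hedgehog ligands. DHH, the third ligand, and the mesenchymal target FOXF1 had no peak in any list. GRK2, a kinase that acts on SMO, and the target FOXL1 had peaks in WT PP alone. The most peaks over all lists were found on CCND2, a cyclin of the G1 phase, with 41, on EVC, a protein at the base of the cilium, with 39, and on CSNK1A1, a kinase of SMO and GLI proteins, with 38. The re-matched input level of CCND2 was 56.2 for hPSC, 16.5 for DE, 213 for PP, 332 for hILO, 170 for WT PP and 571 for A5-KO PP. That of CSNK1A1 was 36 for hPSC, 107 for DE, 92.2 for hILO, 22.7 for WT PP and 51.4 for A5-KO PP, and that of EVC was 27.9 for hPSC, 25.1 for DE and 95.6 for hILO. Of the members, 4 of 9 had a peak in all 6 lists, and no test of the difference was made.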

How the data were processed

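Per the labels and the study's methods, the authors used fastp for trimming, HISAT2 with GRCh38 for alignment and exomePeak2 for 1 peak list per population. The authors deposited, for each peak, IP and input read counts pooled over libraries, a log2 enrichment and a p-value, also in adjusted form. The deposited log2 enrichment was at least 0.585 and adjusted p at most 0.05 in every list. Whether pooled counts are sums or means is not given in the sources used here. Depth is the reads inside peaks.

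The members and gene lists were chosen with earlier results of these data known. Spans were reduced to GENCODE 44 exons, and regions were read from the midpoint on the isoform with the longest coding sequence. An item of the wider pathway list is not reported here. All 9 members were named whatever their values, other genes by the rule given with them, and the shown sites by the number of lists.

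The fault in pairing was found in the data and its cause was not tested. Values were re-matched to coordinates with a hidden Markov model on span length, IP reads and p, in which the shift grows by skipped peak numbers. This was chosen after seeing the data, as were the limits of 10 re-matched input reads and of spans up to 2000 nt. It was the last of 5 versions and was kept because length and reads were then related in every block of every list. A constant shift gave no gain, a model on GC content failed, the third was incomplete for PP, WT PP and A5-KO PP, and the fourth failed in all lists but hPSC. Member values had been seen under the third before the last 2 were made. On a simulated list like hILO with 29828 rows, 17.8% of listed and 97.8% of re-matched pairings were right, and 99.2% at a probability of at least 0.9, which 94.8% reached. The simulated rows were drawn from hPSC peaks. In the real lists that probability was reached by 62.5% of peaks for PP, 67.5% for WT PP and 71.9% for A5-KO PP. How often such a match is right in those lists was not tested. Re-matched levels and ratios were computed from counts and not from the deposited log2 enrichment or p, although the match itself drew on p. Whether log2 enrichment and p go with the counts or with the coordinates in each row is not shown here.

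The planned design and alternatives use the values as listed. Software was Python 3.11.15, pandas 2.3.3, SciPy 1.17.1, PyRanges 0.1.4 and pysam 0.24.0.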

Additional observations from a re-analysis of the deposited data

How the results depend on the processing

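No paired analysis was possible because each deposited list pools its libraries, and for the same reason the count model with an interaction, the replicate block and the fits leaving out each replicate were not run. Of 180 alternative values for 45 results, 128 stayed within 1.5 times the value reported (for the motif ratio, within its counting interval), 45 did not, and 7 turned the direction of most shared peaks past 1. These 7 were 1 peak between hPSC and DE, 1 between PP and hILO and 1 between PP and WT PP with re-matched reads, each with and without a minimum of 10 input reads, and 5 between PP and WT PP with the listed count ratio. Between hPSC and DE another peak was past 1, and between PP and hILO the lower peak was past 1 under both pairings while only 3 of 7 pairs had re-matched reads. The thresholds on p, IP/input and input reads act on listed values and so carry the fault in the pairing. At an IP/input of at least 3 the member peaks numbered 16 for hPSC, 10 for DE, 8 for PP and 6 for hILO. At p below 1e-05 they numbered 18 for hPSC, 16 for WT PP and 22 for A5-KO PP. At p below 1e-10 they numbered 9 for hPSC, 7 for DE, 6 for PP, 5 for hILO, 10 for WT PP and 11 for A5-KO PP, and the genes with a peak 5 for WT PP and 5 for A5-KO PP. With at least 10 re-matched input reads, 4 peaks on 2 genes were left in PP, where few matches reached the probability asked. Reciprocal overlap left 11 shared member peaks in each direction between WT PP and A5-KO PP, and any overlap gave 13 of the WT PP peaks in PP. Shared member peaks past 1 on the log2 scale numbered 0 between hPSC and DE with the listed count ratio, 1 between DE and PP with at least 50 input reads and 1 with re-matched reads, with or without a minimum of 10. Between PP and WT PP reciprocal overlap gave 3. Between WT PP and A5-KO PP there were 4 with at least 10 input reads, 2 with at least 50, 6 with reciprocal overlap and 5 with at least 10 re-matched input reads. In the 3′ UTR, any overlap gave 8 member peaks in hPSC, and the longest transcript gave 11 for hPSC and 10 for DE. GGAC gave density ratios of 1.76 for hPSC, 1.73 for DE, 2.12 for PP, 2.07 for hILO, 2.1 for WT PP and 1.72 for A5-KO PP, and DRACH against the opposite strand gave 1.43 for hPSC, 1.84 for DE, 1.93 for PP, 2.2 for hILO and 1.51 for WT PP. The input level over the re-matched member peaks was 29.5 for DE and 98.4 for hILO, against 152 and 52.2 as listed. Input reads limit the WT PP and A5-KO PP ratios, since 12 member peaks had no re-matched input read. The thresholds and the reciprocal overlap keep fewer peaks by construction, and the cause of the other changes was not tested.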
